A study of Mus musculus with 45 samples.

Results

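The core and naive pluripotency factors, 3 core (Pou5f1, Sox2 and Nanog) and 7 naive, were chosen by their symbols in 2 RNA-seq tables of 33924 genes each, and are described over all 12 samples of each table. Of these genes, 22048 varied in the ΔG table and 21979 in the ΔPG table, and all 10 factors were among them. Tfcp2l1 was found under its older symbol Tcfcp2l1, and the other 9 under their own.

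Pluripotency in mouse embryonic stem cells (ESCs) is held by transcription factors that bind one another's regulatory DNA and keep each other switched on. The core factors Pou5f1, Sox2 and Nanog occupy enhancers together, and Pou5f1 with Sox2 bind as a pair to an octamer next to a Sox motif. The naive factors Esrrb, Tfcp2l1, Zfp42, Tbx3, Prdm14, Nr0b1 and Nr5a2 mark and sustain the state that ESCs share with the early epiblast, and leukemia inhibitory factor (LIF) feeds into several of them. Retinoic acid (RA) acts through nuclear receptors, and cells that leave pluripotency under RA switch this network off.

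The study asked what the long noncoding RNA (lncRNA) gene 5430416N02Rik does in mouse ESCs. The cells were of the D3 line, of the 129 strain, grown without feeder cells on gelatin with serum and LIF. In ΔG cells the gene body was replaced by a GFP and puromycin resistance cassette. In ΔPG cells the promoter was lost together with the gene body, in exchange for a puromycin resistance cassette. Heterozygous (het) and homozygous (hom) cells of both lines were given DMSO (ES) or 2 µM RA for 48 h, with 3 samples in each of the 8 groups. The controls were het cells, so they too carried the cassette and had lost 1 allele, and no wild type cells were in the tables. The study made 2 independent clones of each genotype, and the labels do not say which clone or clones gave these samples, so effects of a clone cannot be told apart from those of genotype. The values are regularized log (rlog) levels, a log2 scale on which low counts are pulled toward the mean of a gene. The depth behind them is unknown. The 3 samples of a group correlated at r = 0.991 or more over the genes with a mean rlog of at least 3.

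The deletion itself was seen in every comparison. 5430416N02Rik read 5.58, 5.54 and 5.50 in the het ΔG ES samples and 2.63, 2.77 and 2.85 in the hom ones. In ΔPG ES cells it read 4.62, 4.58 and 4.59 against 2.23, 2.21 and 2.46. On RA the hom minus het difference was -2.75 in ΔG and -1.81 in ΔPG on the log2 scale, and no hom sample overlapped a het sample in either state.

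The promoters of 4 factors are printed here, those of the 3 core factors and of Zfp42, the only naive factor in which an octamer was found. They hold letters that the network's own proteins or nuclear receptors are known to read. Each is the 250 bases before the transcription start, 5′ to 3′ on the gene's strand, from RefSeq on GRCm38.p6. Capitals mark a match to the octamer ATGCAAA, the Sox motif ACAATG or the nuclear receptor site AGGTCA, in either orientation.
Pou5f1 (chr17:35505782-35506031, + strand): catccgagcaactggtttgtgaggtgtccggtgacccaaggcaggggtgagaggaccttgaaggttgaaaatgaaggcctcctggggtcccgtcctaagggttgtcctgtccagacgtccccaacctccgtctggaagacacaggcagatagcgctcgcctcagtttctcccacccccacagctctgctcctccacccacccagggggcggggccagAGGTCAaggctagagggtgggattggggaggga
Sox2 (chr3:34649745-34649994, + strand): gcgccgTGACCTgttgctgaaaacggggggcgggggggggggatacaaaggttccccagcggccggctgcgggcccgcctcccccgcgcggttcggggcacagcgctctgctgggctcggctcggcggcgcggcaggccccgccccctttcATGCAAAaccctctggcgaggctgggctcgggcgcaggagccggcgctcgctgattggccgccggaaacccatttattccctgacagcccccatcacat
Nanog (chr6:122707239-122707488, + strand): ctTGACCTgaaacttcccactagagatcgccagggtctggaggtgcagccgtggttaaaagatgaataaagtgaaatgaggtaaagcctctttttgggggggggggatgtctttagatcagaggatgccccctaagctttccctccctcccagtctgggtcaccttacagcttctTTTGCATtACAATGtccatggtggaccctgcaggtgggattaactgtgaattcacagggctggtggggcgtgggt
Zfp42 (chr8:43307010-43307259, - strand): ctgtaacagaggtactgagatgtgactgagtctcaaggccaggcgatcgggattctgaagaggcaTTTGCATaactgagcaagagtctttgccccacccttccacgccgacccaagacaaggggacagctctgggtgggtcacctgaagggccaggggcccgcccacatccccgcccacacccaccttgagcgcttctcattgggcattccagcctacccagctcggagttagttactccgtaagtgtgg
The Pou5f1 window held a receptor site that began 33 bases before the start. The Nanog window held an octamer match from base 75 with a Sox match from base 67 before the start, separated by a single base. The Sox2 and Zfp42 windows held an octamer match from base 99 and from base 185 before the start.

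The promoter table held 12 windows for 8 of the factors, and Tbx3 and Prdm14 had no entry. An octamer was found in 4 of the 12 windows, of Sox2, Nanog and Zfp42, and in 4.12% of all 32851 windows of this length. The receptor site was found in 5 windows, of Pou5f1, Sox2, Nanog, Nr0b1 and Nr5a2, and in 14.0% of all windows. The Sox motif was found in 3 windows, of Pou5f1 and Nanog, against 10.7%. The Pou5f1 match lay in its other window (chr17:35508557-35508806), which is not printed here, and the printed one held none. The 2 Nanog windows overlap and hold the same octamer and the same Sox match, so each of these sites was counted in both. The longer site AAGGTCA, the form that Esrrb and Nr5a2 prefer and which holds the receptor site within it, was found in 0 of the 12 windows and in 4.08% of all. TATAAA was found in 3 windows, of Tfcp2l1, Nr0b1 and Nr5a2, against 12.4%. A match is a string of letters and not a measured binding site.

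The 10 factors had lower values on RA in both lines and genotypes. All 10 were called lower in het ΔG, hom ΔG and het ΔPG cells, and 9 of 10 in hom ΔPG cells. A gene was called at a limma adjusted p (Benjamini-Hochberg, over all genes that varied) under 0.1 with a difference over 0.5 on the log2 scale. Of all genes tested, 11.7%, 12.1%, 13.6% and 11.3% were called lower in the same 4 comparisons. In all 4, none of the 3 RA samples of any factor overlapped its 3 ES samples, and 23.3%, 23.4%, 25.5% and 23.1% of all genes were lower without overlap. The median difference of the 10 factors was -3.86, -3.85, -3.45 and -3.51, while that of all genes lay between 0.01 and 0.04. In these bulk samples, fewer cells that express a factor and less RNA per cell cannot be told apart.

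**Figure D1:**
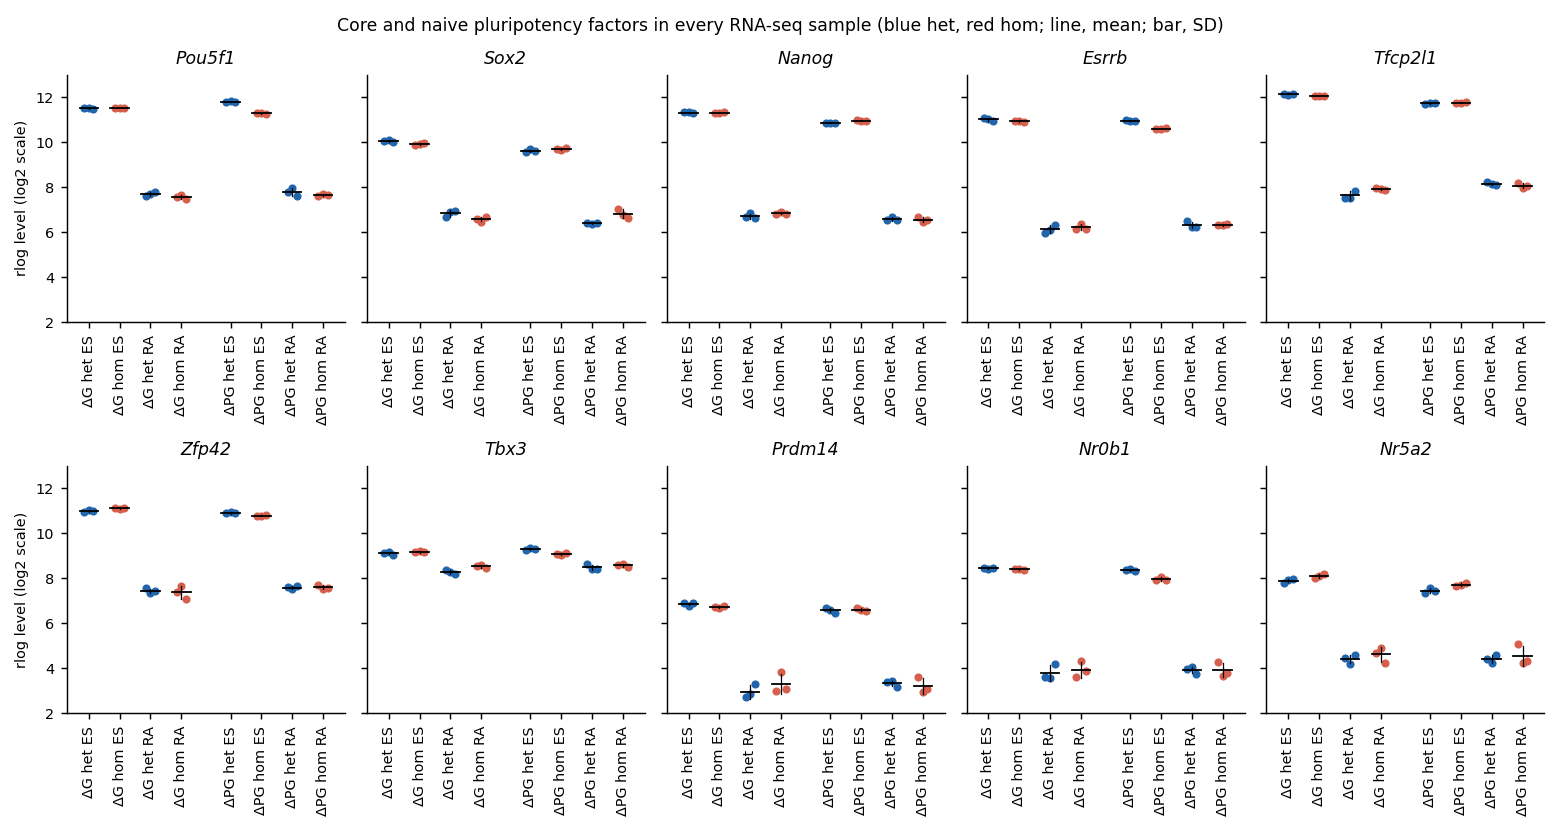
Rlog level (log2 scale) of each of the 10 factors in all 24 samples, in het (blue) and hom (red) cells of the ΔG and ΔPG lines. Points are samples, lines are group means and bars are SD (n = 3). In 9 factors the RA samples sit far below the ES samples in both lines, and in Tbx3 the step is small.

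Pou5f1 (Oct4) is the POU factor without which ESCs cannot be maintained. Its level went from 11.53, 11.51 and 11.48 in het ΔG ES samples to 7.62, 7.70 and 7.77 on RA. Hom ΔG cells went from 11.52, 11.52 and 11.53 to 7.58, 7.64 and 7.47. These are differences of -3.81 (95% interval -3.91 to -3.70) and -3.96 (-4.06 to -3.86), so that about 7.14% and 6.43% of the ES level remained on this shrunken scale. The ΔPG cells started less evenly. Het samples went from 11.77, 11.83 and 11.78 to 7.80, 7.95 and 7.61, and hom samples from 11.28, 11.28 and 11.27 to 7.61, 7.67 and 7.66. The difference was -4.01 in het and -3.63 in hom cells. The hom samples all lay below the het samples in ES, and the ranges overlapped on RA.

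Sox2, the HMG-box partner of Pou5f1, also serves neural progenitors. In ΔG it stood at 10.04, 10.08 and 10.01 in het ES samples and at 6.67, 6.90 and 6.94 after RA. The hom samples stood at 9.88, 9.93 and 9.95 and 6.58, 6.47 and 6.68. Of the core factors it had the smallest differences, -3.21 and -3.34. In ΔPG the het samples dropped from 9.57, 9.67 and 9.60 to 6.41, 6.37 and 6.41. The hom samples dropped from 9.69, 9.64 and 9.73 to 7.03, 6.77 and 6.64, a change of -2.87 (95% interval -3.06 to -2.69) against -3.22 (-3.31 to -3.13) in het cells. The 3 hom RA samples all lay above the 3 het RA samples in this line.

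Nanog is the homeobox factor that lets ESCs self-renew with little LIF. Het ΔG samples read 11.33, 11.32 and 11.28 in ES and 6.66, 6.83 and 6.62 on RA, and hom samples 11.30, 11.29 and 11.32 and 6.80, 6.87 and 6.81. Het ΔPG samples read 10.83, 10.85 and 10.84 and 6.53, 6.69 and 6.55, and hom samples 10.97, 10.95 and 10.92 and 6.67, 6.44 and 6.52. The differences of -4.61, -4.48, -4.25 and -4.40 were the largest of the core factors in all 4, and between 4.1% and 5.26% of the ES level remained.

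Among the 10, Esrrb, an orphan nuclear receptor and a direct Nanog target, lost the most in het and hom ΔG and in het ΔPG cells. It went from 11.08, 11.01 and 10.92 to 5.94, 6.11 and 6.31 in het ΔG and from 10.93, 10.96 and 10.88 to 6.12, 6.38 and 6.15 in hom ΔG samples. The ΔPG values went from 10.96, 10.93 and 10.94 to 6.48, 6.22 and 6.24 in het and from 10.59, 10.59 and 10.60 to 6.30, 6.30 and 6.37 in hom samples. The differences of -4.88, -4.70, -4.63 and -4.27 left 3.39% to 5.18% of the ES level. In hom ΔPG cells Nanog lost slightly more.

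Tfcp2l1 is a CP2 family factor that LIF switches on through Stat3. In ΔG it ran from 12.14, 12.11 and 12.16 to 7.52, 7.52 and 7.84 in het samples and from 12.04, 12.03 and 12.05 to 7.96, 7.90 and 7.88 in hom samples. In ΔPG it ran from 11.69, 11.72 and 11.73 to 8.20, 8.14 and 8.10 and from 11.74, 11.74 and 11.79 to 8.18, 7.96 and 8.03. The difference was -4.51 in het and -4.12 in hom ΔG cells, with intervals that did not overlap (-4.66 to -4.35 and -4.20 to -4.04). In ΔPG the differences were -3.57 and -3.70.

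Zfp42 (Rex1) is a zinc finger protein long used as a marker of the naive state. Het ΔG samples went from 10.97, 11.03 and 11.01 to 7.55, 7.35 and 7.42, and hom ΔG samples from 11.11, 11.09 and 11.13 to 7.39, 7.66 and 7.07. Het ΔPG samples went from 10.89, 10.96 and 10.88 to 7.60, 7.51 and 7.64, and hom ΔPG samples from 10.77, 10.75 and 10.80 to 7.71, 7.52 and 7.58. All 4 differences lay between -3.74 and -3.17. The RA samples of hom ΔG cells were the most spread.

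Tbx3, a T-box factor that also acts in extraembryonic endoderm and in many organs, kept most of its level. Het ΔG samples went from 9.14, 9.18 and 9.06 to 8.36, 8.29 and 8.18 and hom samples from 9.16, 9.23 and 9.17 to 8.54, 8.59 and 8.45. In ΔPG, het samples went from 9.28, 9.33 and 9.30 to 8.63, 8.42 and 8.41 and hom samples from 9.07, 9.04 and 9.12 to 8.60, 8.62 and 8.52. The differences of -0.85, -0.66 and -0.82 were called lower. The difference of -0.49 in hom ΔPG cells (95% interval -0.60 to -0.39, limma adjusted p = 3.9e-06) missed the limit on size only. With medians centred it was -0.53, with the GC trend removed -0.54, with quantile normalization -0.35, and it lay between -0.51 and -0.46 with 1 sample left out, so its call depends on these choices. From 55.6% to 71% of the ES level remained, against 3.39% to 13.7% for the other 9 factors. The least change among those 9 was -2.87, for Sox2 in hom ΔPG cells.

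Prdm14, a PR domain protein that keeps DNA methyltransferases and FGF signalling low, had low levels on RA. It read 6.91, 6.79 and 6.89 in het ΔG ES samples and 2.71, 2.84 and 3.31 on RA, and 6.75, 6.69 and 6.77 and 2.99, 3.82 and 3.08 in hom samples. In ΔPG it read 6.69, 6.61 and 6.48 and 3.39, 3.42 and 3.19 in het and 6.67, 6.58 and 6.55 and 3.63, 2.93 and 3.09 in hom samples. The differences of -3.91, -3.44, -3.26 and -3.38 had standard errors of 0.1 to 0.17, among the larger ones of the set, and rlog shrinkage is strongest at such low levels.

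Nr0b1 (Dax1), an orphan receptor without the usual DNA binding domain that restrains Pou5f1 and Nr5a2, also fell to a low level. ΔG samples went from 8.48, 8.40 and 8.44 to 3.63, 3.57 and 4.21 in het and from 8.43, 8.41 and 8.38 to 3.62, 4.33 and 3.89 in hom cells. ΔPG samples went from 8.39, 8.43 and 8.34 to 3.97, 4.05 and 3.76 and from 7.93, 8.06 and 7.92 to 4.28, 3.67 and 3.81. Its differences of -4.64, -4.46, -4.46 and -4.05 took the second or the third place among the 10 in every comparison.

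Nr5a2 (Lrh-1), a nuclear receptor that activates Pou5f1 in the epiblast, was the remaining factor. In ΔG it went from 7.81, 7.94 and 7.96 to 4.47, 4.21 and 4.58 in het and from 8.00, 8.09 and 8.21 to 4.70, 4.92 and 4.25 in hom samples. In ΔPG it went from 7.37, 7.56 and 7.46 to 4.44, 4.25 and 4.59 in het and from 7.67, 7.70 and 7.78 to 5.07, 4.26 and 4.33 in hom samples. The change was -3.48 and -3.48 in ΔG and -3.03 and -3.17 in ΔPG, and replicate 1 of the hom ΔPG RA cells lay above the other two.

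**Figure D2:**
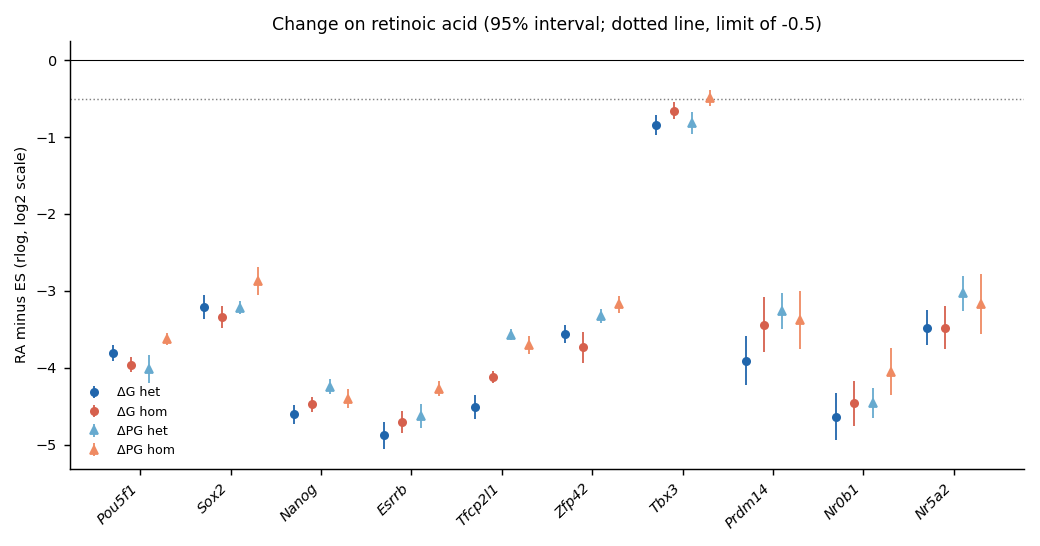
RA minus ES difference (rlog, log2 scale) of each factor in het and hom cells of both lines, with 95% intervals from limma; the dotted line is the limit of -0.5. Tbx3 lies between -0.85 and -0.49, and the other 9 factors between -4.88 and -2.87.

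Set against the whole table, the 9 factors other than Tbx3 were among the 57 most negative differences of 22048 in het ΔG cells and among the 49, 53 and 52 most negative in hom ΔG, het ΔPG and hom ΔPG cells. Esrrb in het ΔPG cells and Nanog in hom ΔPG cells each had rank 2 of 21979. Tbx3 ranked 1522 and 2523 of 21979 in these cells.

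Levels of different genes can be compared only per length, so log2 of the exon length in kb was subtracted. In all 4 ES groups Pou5f1, Zfp42 and Nanog then led in this order, from 10.62 for Pou5f1 in het ΔPG cells to 9.67 for Nanog in the same cells, and Prdm14 was lowest at 5.23 to 5.50. Tfcp2l1, with exons of 9.27 kb, took the fourth place at 8.50 to 8.92. Neighbours in the order whose samples overlapped in ES were Zfp42 and Nanog in het ΔG and Esrrb and Sox2 in het ΔPG cells. On RA the order changed. Zfp42 and Pou5f1 stayed on top, at 6.53 to 6.75 and 6.39 to 6.61, and their samples overlapped in 3 of the 4 groups. Tbx3 moved from the eighth to the third place, at 5.85 to 6.16.

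Across the 12 samples of a table, the factors ran together. Pearson r of Tbx3 with the others was 0.94 to 0.97 in ΔG and 0.93 to 0.97 in ΔPG, and Tbx3 was the least correlated partner of each of the other 9. The highest r was 0.9996, for Nanog with Tfcp2l1 in ΔPG. These 12 points share the same libraries and fall into an ES and an RA cluster, so r mainly restates the RA step. Of 4139 genes outside the set with a range of at least 1 in both tables, Fgf4, Myh13, Adap1, Manba and Tdh followed the mean centred profile of the 10 most closely, with a lower r of the 2 tables of 0.998 for each. Fgf4, the growth factor that pushes ESCs out of the naive state, differed by -4.88, -4.51, -4.41 and -4.19 on RA in the order used above. Tdh, a threonine dehydrogenase typical of mouse ESCs, differed by -5.20, -5.47, -4.37 and -4.18.

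Other genes of the network were less uniform. Of 25 listed partners and targets, 16 were called lower and 1 higher in het ΔG, 16 and 2 in hom ΔG, 16 and 1 in het ΔPG, and 15 and 1 in hom ΔPG cells. The shares of all genes called higher were 17.7%, 17.0%, 18.0% and 16.5%. The lowest was Tdgf1, the Nodal coreceptor Cripto, at -5.95 in het ΔG and -4.51 in het ΔPG cells. The highest was Lin28a, an RNA-binding protein that blocks let-7 maturation, which rose by 1.54 and 0.70. The median of the list was -1.34 in het ΔG and -0.74 in het ΔPG cells.

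LIF signalling components split. Socs3, the feedback inhibitor that Stat3 induces, fell by 2.51 in het ΔG and 2.45 in het ΔPG cells. Of the 6 genes, 2 were called lower and 2 higher in het ΔG, 2 and 1 in hom ΔG, 3 and 1 in het ΔPG, and 1 and 0 in hom ΔPG cells. The highest called were Jak1, the kinase of the receptor complex, at 0.66 in het ΔG and Lifr, the LIF receptor, at 0.73 in het ΔPG cells.

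Of 5 genes known as repressors of the network, 2 were called higher in het ΔG, het ΔPG and hom ΔPG cells and 3 in hom ΔG cells, and none lower. In het cells these were the COUP-TF receptors Nr2f1 (2.39 in ΔG and 2.35 in ΔPG) and Nr2f2 (2.75 and 3.04). Nr6a1 (GCNF), which is known to silence Pou5f1, differed by 0.23 and 0.25. Of 11 RA response genes, 10 were called higher and 1 lower in all 4 comparisons. Cyp26a1, which degrades RA, rose by 5.88 in het ΔG and 4.60 in het ΔPG cells, and the 1 that fell was the caudal factor Cdx1, by 3.46 and 3.55.

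Among 8 genes of the formative epiblast, 4 were called higher and 2 lower in each of the 4 comparisons. Fgf5 rose by 1.57 in het ΔG and 1.46 in het ΔPG cells, and Zic2 fell by 0.90 and 1.10. All 7 primitive endoderm markers were called higher in every comparison. Their mean rlog level was 3.10 to 3.59 over the ES samples and 5.83 to 6.57 over the RA samples. In het cells the largest rise was that of Dab2, by 4.62 in ΔG and 3.91 in ΔPG, and the smallest were Foxa2 (1.89) in ΔG and Sox7 (2.24) in ΔPG.

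Genes used as markers of other cell types moved as well, in cultures grown without feeder cells. Of 5 fibroblast genes, 4, 3, 4 and 4 were called higher and 0, 0, 1 and 1 lower in the order used above, with Col1a2 at 5.43 in het ΔG and Col3a1 at 4.57 in het ΔPG cells. Postn, at 0.64 in ΔG, was the smallest called, and Thy1, at -0.67 in ΔPG, was the 1 called lower. The mean rlog level of the 5 was 2.37 to 3.05 over the ES samples and 4.52 to 5.23 over the RA samples. Of 5 trophectoderm genes, 2 were called higher in each comparison, with Gata3 at 2.43 and 2.54, and Eomes was called lower (-0.83 and -0.74 in het cells) in all but hom ΔG cells. Of 4 neural genes tested, 2 were called higher, Pax6 (2.86 and 2.60) and Nes (1.59 and 1.03). Of the mesoderm genes tested, 4 in ΔG and 5 in ΔPG, Kdr was called higher (1.73 and 1.67) and T lower (-0.87 and -1.32). The part of a changed cell mixture in the fall of the 10 factors was not tested.

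**Figure D3:**
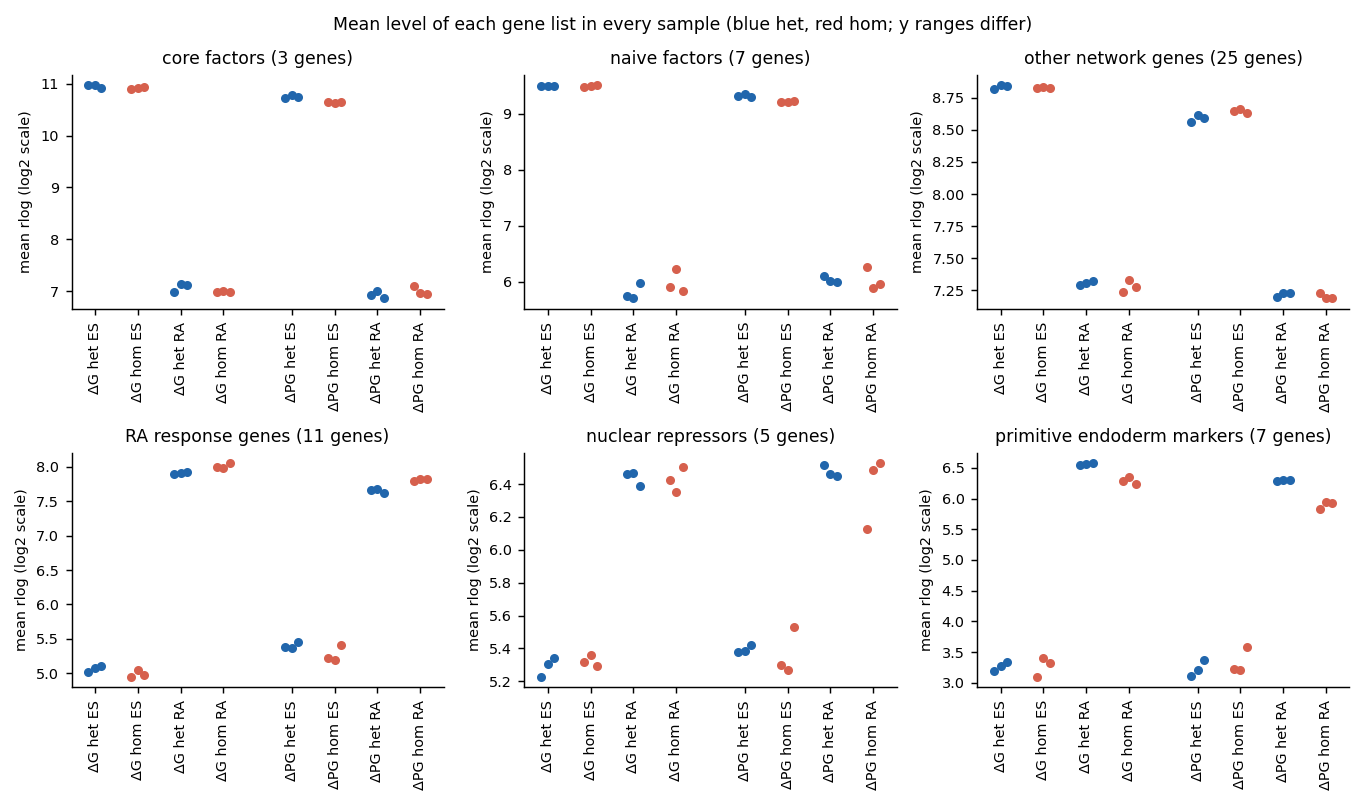
Mean rlog level (log2 scale) of 6 gene lists in every sample, het in blue and hom in red, with a y range of its own in each panel. The core, naive and other network lists are lower on RA in both lines, and the RA response, repressor and primitive endoderm lists are higher.

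The second question was whether the factors depend on the lncRNA gene in ES cells. In ΔG ES cells 0 of the 10 were called between hom and het, where 0.984% of all genes were, and all 10 intervals lay within 0.5 of 0. At an unadjusted p under 0.05 there were 4 of 10, against 15.4% of all genes. By limma adjusted p alone, 3 passed, against 5.22% of all genes, with small sizes. Tfcp2l1 was lower by 0.10 (adjusted p = 0.018), Sox2 lower by 0.13 (adjusted p = 0.0995) and Zfp42 higher by 0.11 (adjusted p = 0.054). In 5 of the 10, these 3 included, no hom sample overlapped a het sample, 3 lower and 2 higher, against 9.00% and 8.77% of all genes. The difference of Pou5f1 was 0.02 (95% interval -0.02 to 0.06) and that of Nanog -0.01 (-0.05 to 0.04).

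In ΔPG ES cells 1 of the 10 was called. Pou5f1 was lower in hom cells by 0.52 (95% interval -0.56 to -0.47, limma adjusted p = 1.8e-06), a level of 69.8% of that in het cells, and in this comparison 13.2% of all genes were called and 6.29% were called lower. Pou5f1 was not called at an adjusted p under 0.05 with a fold over 1.5, the limits that the paper states for its RIP-seq lists. By adjusted p alone 7 factors passed, against 36.1% of all genes, and the same 7 had an unadjusted p under 0.05, against 38.4%. Lower in hom cells were also Nr0b1 (-0.42), Esrrb (-0.35), Tbx3 (-0.23) and Zfp42 (-0.14), and higher were Nr5a2 (0.26) and Nanog (0.11). These 7 and Tfcp2l1 had no overlap between genotypes, 5 lower and 3 higher, against 20.9% and 18.7% of all genes.

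These differences ran with base composition. Over 11904 genes with a mean rlog of at least 3, the hom against het difference in ΔPG ES cells correlated with the GC content of the exons at r = -0.71, and in the other 3 genotype comparisons r was at most 0.11 in size. Over the 10 factors r was -0.84. The 4 of highest GC content, Nr0b1 (55.2%), Pou5f1 (54.7%), Esrrb (54.5%) and Tbx3 (53.2%), were the 4 with the most negative differences, and Nr5a2, of lowest GC content (43.9%), had the highest. After the GC trend of each sample was removed, Pou5f1 differed by -0.22 (95% interval -0.26 to -0.18) and was not called for its size, although its adjusted p still passed (limma adjusted p = 4.7e-11). By adjusted p alone 6 of the 10 passed after the removal, against 7 before. The fit after the removal used only genes with a mean rlog of at least 3. The share of all genes that passed in it was not counted, so the counts of 6 and 7 are not like for like. Esrrb then differed by -0.06, Nr0b1 by -0.10, Tbx3 by -0.00 and Nr5a2 by -0.04. Sox2 went the other way, from 0.07 to 0.24 (0.17 to 0.31), and Zfp42 from -0.14 to -0.26. The Pou5f1 call also rested on replicate 2 of the het ΔPG ES cells, without which the difference was -0.50, just under the limit.

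**Figure D4:**
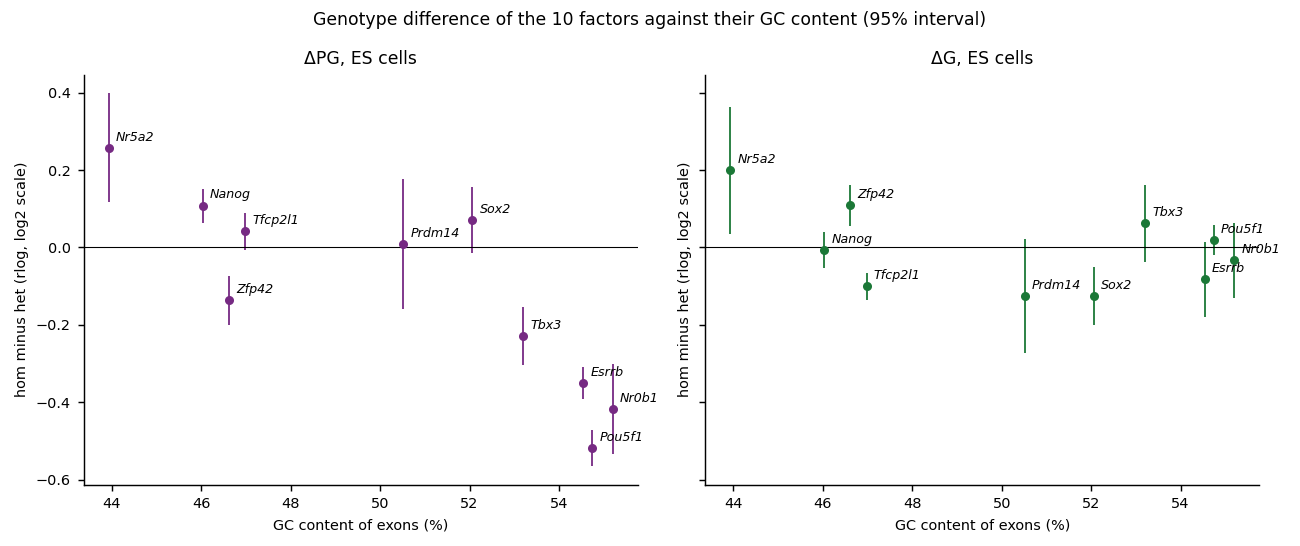
Hom minus het difference (rlog, log2 scale, 95% interval) of the 10 factors in ES cells against the GC content of their exons (%), in ΔPG (left) and ΔG (right). In ΔPG the 4 factors of highest GC content lie between -0.52 and -0.23 and Nr5a2 at 43.9% lies at 0.26, and in ΔG all 10 lie between -0.13 and 0.20.

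On RA, 0 of the 10 factors were called between genotypes in either line, against 2.14% of all genes in ΔG and 0.846% in ΔPG. At an unadjusted p under 0.05 there were 3 in ΔG and 1 in ΔPG, against 19.6% and 14.0% of all genes. By adjusted p alone, which 11.0% and 4.58% of all genes passed, Tfcp2l1 was higher by 0.29 (limma adjusted p = 0.038) and Tbx3 by 0.25 (adjusted p = 0.019) in hom ΔG cells, and Sox2 by 0.42 (adjusted p = 0.047) in hom ΔPG cells. For Sox2 the 95% interval was 0.21 to 0.63. With 1 sample left out the difference lay between 0.31 and 0.50, and it was called only without replicate 3 of the hom cells, at 0.50. Over all alternatives its adjusted p (limma) reached 0.17, which is over the limit. In ΔG the difference of Sox2 was -0.26 (-0.46 to -0.06). The intervals were wider on RA, where levels were low. In each line 7 of the 10 intervals lay within 0.5 of 0. The widest ran from -0.07 to 0.76 in ΔG, for Prdm14, and from -0.34 to 0.59 in ΔPG, for Nr5a2.

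**Figure D5:**
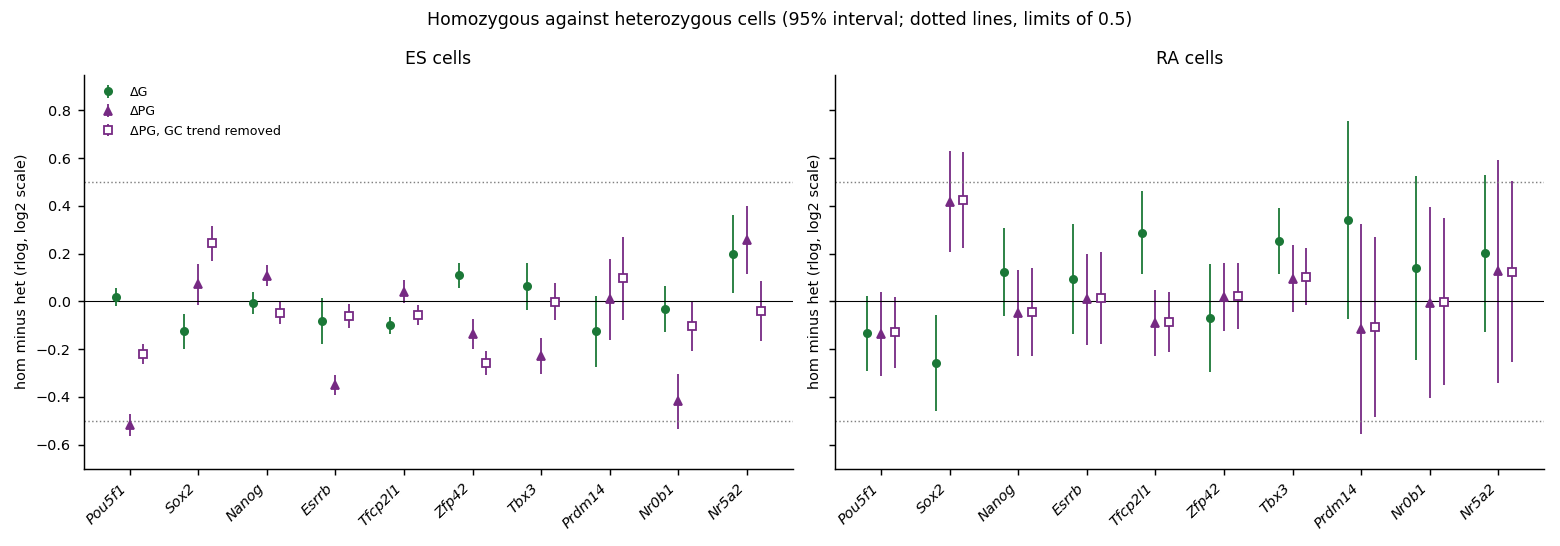
Hom minus het difference (rlog, log2 scale, 95% interval) of each factor in ES cells (left) and on RA (right), for ΔG, ΔPG and ΔPG after removal of the GC trend; dotted lines are the limits of 0.5. In ΔPG ES cells Pou5f1 lies at -0.52 before and at -0.22 after the removal, and the ΔG values lie within 0.20 of 0 in ES cells.

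The direct test of whether the loss on RA depended on genotype was the interaction, the RA change in hom minus that in het cells over the 12 samples of a table. None of the 10 factors was called in ΔG or in ΔPG, where 2.38% and 13.9% of all genes were. At an unadjusted p under 0.05 there were 3 in ΔG and 6 in ΔPG, against 14.7% and 33.0%. In ΔG, Tfcp2l1 passed by adjusted p alone, as did 5.28% of all genes, with a fall that was smaller in hom cells by 0.39 (95% interval 0.23 to 0.55, limma adjusted p = 0.0037). The difference was as large with the GC trend removed (0.39). Over all alternatives it lay between 0.28 and 0.50, and its adjusted p (limma) reached 0.13, which is over the limit. Prdm14 had a larger estimate, 0.47, with an interval of -0.00 to 0.94.

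In ΔPG, 4 factors passed by adjusted p alone, against 29.1% of all genes, and all 4 fell less in hom cells. These were Pou5f1 (0.38, limma adjusted p = 0.0039), Esrrb (0.36, adjusted p = 0.0036), Sox2 (0.35, adjusted p = 0.024) and Tbx3 (0.32, adjusted p = 0.0055). Here too the values ran with GC content, at r = 0.69 over 11904 genes and 0.86 over the 10 factors. With the GC trend removed they were 0.09 for Pou5f1, 0.07 for Esrrb, 0.18 for Sox2 and 0.10 for Tbx3, and none of the 4 passed. Zfp42 alone then passed by adjusted p, at 0.28 (95% interval 0.15 to 0.41, limma adjusted p = 0.00098), from 0.15 before. The share of all genes that passed after the removal was not counted. Before the removal Nr0b1 had the highest value of the 10, 0.41 (0.02 to 0.80), and was called only without replicate 2 of the hom RA cells, at 0.54. With the GC trend removed Nr0b1 was at 0.10 (95% interval -0.25 to 0.45, limma adjusted p = 0.71).

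Genes around the 10 factors were also compared between genotypes, and the single genes named here were chosen after their values were seen. Of the 25 other network genes, 0 were called in ΔG ES cells, where 0.984% of all genes were, and 3 in ΔPG ES cells, where 13.2% were. These were Rif1, Dppa2 and Zfp281, all higher in hom cells (0.75, 0.65 and 0.62). The share of the network genes called in ΔPG ES cells was near that of all genes. On RA, Fbxo15 was lower in hom ΔG cells (-0.70) and Klf4 in hom ΔPG cells (-0.61), against 2.14% and 0.846% of all genes called. The interaction was called for Tcl1 in ΔG (-0.77), against 2.38% of all genes. In ΔPG it was called for 9 of the 25, 4 higher and 5 lower, against 13.9%. The higher were Gbx2 (0.57), Nacc1 (0.51), Trim28 (0.50) and Dppa5a (0.50), and the lower were Tcl1 (-0.73), Rif1 (-0.73), Zfp281 (-0.72), Klf5 (-0.68) and Klf4 (-0.61). All these values are as deposited. Over 11904 genes the ΔPG ES differences ran with GC content at r = -0.71 and the ΔPG interactions at r = 0.69. With the GC trend removed, calls over all genes went from 2893 to 865 and from 3056 to 1122. Values of the network genes after the removal are not given here, and the part of base composition in them was not tested.

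Of the 7 primitive endoderm markers, 0 were called in ΔG ES cells and 1, Pdgfra, was higher in hom ΔPG ES cells (0.56). In hom RA cells 2 were called lower in ΔG, Pdgfra (-0.66) and Dab2 (-0.70), while Foxa2 differed by 0.31 and was not called. In ΔPG 3 were called lower, Gata4 (-0.80), Dab2 (-0.60) and Sox17 (-0.50). The interaction was called lower for Pdgfra (-0.67) and Dab2 (-0.95) in ΔG and for Gata4 (-0.73), Pdgfra (-0.77) and Dab2 (-0.82) in ΔPG. The shares of all genes called, and the limit on GC content in ΔPG, are those given for the network genes.

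In the remaining lists, single genes were called between genotypes. In ΔPG ES cells Socs3 (-0.79), Nes (-0.65) and Cdx1 (-0.63) were lower in hom cells. Each was the 1 called of its list (6 LIF, 4 neural and 11 RA response genes tested), where 13.2% of all genes were called. In hom ΔG RA cells Col1a2 (-1.41), Fgf5 (-0.78) and Nr2f1 (-0.73) were lower and Cdx1 (0.91), Hand1 (0.81) and Kdr (0.57) higher. Each was the 1 called of its list, and 2.14% of all genes were called. These lists held 5 fibroblast, 8 formative, 5 repressor, 11 RA response, 5 trophectoderm and 4 mesoderm genes tested. In hom ΔPG RA cells Col3a1 was lower (-0.67) and Hoxb1 higher (0.57). They were 1 of 5 fibroblast and 1 of 11 RA response genes, against 0.846% of all genes. Among the genes whose interaction was called in ΔG were Col1a2 (-1.22), Nr2f1 (-0.81), Fgf5 (-0.76), Crabp2 (-0.53), Cdx1 (0.56), Eomes (0.60), Rarb (0.63) and Hand1 (0.82). In ΔPG they included Col3a1 (-0.76), Nes (0.56), Socs3 (0.58), Pim1 (0.68) and Cdx1 (0.94). The ΔPG interaction was called for 2 of 6 LIF, 2 of 11 RA response, 1 of 4 neural and 1 of 5 fibroblast genes. Of all genes, the interaction was called for 2.38% in ΔG and 13.9% in ΔPG. The ΔPG ES and ΔPG interaction values ran with GC content (r = -0.71 and 0.69 over all genes used). Values with the GC trend removed are not given here for these lists.

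The factors lie on chromosomes 17 (Pou5f1), 3 (Sox2), 6 (Nanog), 12 (Esrrb), 8 (Zfp42), 5 (Tbx3), X (Nr0b1) and 1 (Tfcp2l1, Prdm14 and Nr5a2), and 5430416N02Rik on 5. The 4C-seq lists hold the regions contacted by the 5430416N02Rik promoter in 2 replicates of ESCs. The methods name NCBI37/mm9, but 646 of 671 region starts matched HindIII sites when read as GRCm38 positions, by the offsets of neighbouring genes, against 24 of 680 as given, so RefSeq positions on GRCm38 were used. By these, 5 factor genes overlapped a region in replicate 1 and 5 in replicate 2. Sox2, Esrrb, Tfcp2l1 and Nr5a2 did so in both, 4 of 10, against 38.9% of 21627 protein-coding genes. The share of the factors was near that of all genes.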

How the data were processed

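RNA-seq of 24 samples of the ΔG and ΔPG lines was analysed, with the 4C-seq regions of 2 replicates. The authors sequenced stranded, ribosomal RNA-depleted total RNA, aligned reads to NCBI37/mm9 with TopHat2 2.1.0, removed duplicates with Picard, and obtained strand-specific gene counts with HTSeq 0.6.0. The deposited values are rlog values on the log2 scale from DESeq2 1.14.1, in 1 table per line. The depth of a sample cannot be read from them, and no counting error is given. Whether the transformation used the groups is not stated in the sources used here.

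The difference was fitted with limma 3.58.1 (R 4.3.3, lmFit and eBayes with a variance trend) over all genes that varied, on the 6 samples of a comparison, or the 12 of a table for the interaction. The test was limma because the values are logs and not counts. Calls required an adjusted p (Benjamini-Hochberg) under 0.1 with a difference over 0.5. The 4 RA and 4 genotype comparisons share their samples, so their values are given side by side. The study calls the 3 samples of a group biological replicates. It made 2 clones of each genotype, and the labels do not say which gave these samples, so p-values measure the spread between these samples and may not cover that between clones.

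The factors, the gene lists and the tests were chosen with earlier results of these data known. Named are all 10 factors, 5430416N02Rik, the highest and lowest called gene of each list on RA in het cells, and the 5 genes most like the mean profile. For the GC correction a lowess curve of each sample's deviation against exonic GC content was taken off, using genes whose mean rlog was at least 3. The fits were tested on simulated data. Alternatives were other limits, all 12 samples in the fit, a filter on low values, median centring, quantile normalization, other eBayes settings, a replicate block, the GC correction and leaving out each sample.

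Exon lengths, GC content and positions came from GENCODE vM1 on NCBIM37, and promoters from RefSeq on GRCm38.p6. Exons of Tfcp2l1 shared 1.4% of their bases with a U1 gene on the same strand, and those of the other 9 shared none. Pou5f1 and Nanog are known to have processed copies elsewhere in the genome, and how reads shared with them were counted is not stated in the sources used here. The deposited 4C-seq files list the start and end of regions without a score. As given, 24 of 680 starts matched HindIII sites in NCBIM37, and after a shift by neighbouring genes 646 of 671 did, so GRCm38 positions were used. Figures were drawn with Python 3.11.15 and matplotlib 3.10.9. The RIP-seq and Capture-C files were not used here. The values of 1 listed gene are not reported here.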

Additional observations from a re-analysis of the deposited data

Results flagged for a closer look

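By the adjusted p of the interaction alone, 1 of the 10 factors passed in ΔG and 4 of the 10 in ΔPG. Each had a size under 0.5, so that 0 of the 10 were called. In ΔG this limit was passed by 5.28% of all genes and in ΔPG by 29.1%. In ΔG the factor was Tfcp2l1, which fell less in hom cells by 0.39, from 12.14 to 7.63 on average in het and from 12.04 to 7.91 in hom cells. In ΔPG the factors were Pou5f1 (0.38), Esrrb (0.36), Sox2 (0.35) and Tbx3 (0.32). Values with the GC trend removed were 0.39 for Tfcp2l1, 0.09 for Pou5f1, 0.07 for Esrrb, 0.18 for Sox2 and 0.10 for Tbx3. After the removal Tfcp2l1 in ΔG still passed by adjusted p, and none of the 4 factors in ΔPG did. Over all alternatives the Tfcp2l1 value in ΔG lay between 0.28 and 0.50, and its adjusted p (limma) reached 0.13.

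In ES cells, 2 factors differed in opposite directions in the 2 lines as deposited, with no overlap between genotypes in either. Of all genes, 9.00% were lower and 8.77% higher without overlap in ΔG, and 20.9% and 18.7% in ΔPG. The share of all genes that did so in opposite directions was not counted. Tfcp2l1 was lower in hom ΔG cells (-0.10) and higher in hom ΔPG cells (0.04). Zfp42 was higher in hom ΔG (0.11) and lower in hom ΔPG cells (-0.14). In ΔPG the adjusted p of Tfcp2l1 was 0.18 (limma). With the GC trend removed it was lower in hom cells of both lines (-0.09 in ΔG and -0.06 in ΔPG, adjusted p = 0.021 in ΔPG), and quantile normalization turned both signs (0.0011 and -0.0536). Zfp42 kept its signs with the GC trend removed (0.12 and -0.26). The tables of the lines were normalized separately and the difference between lines was not tested.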

How the results depend on the processing

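Across the alternatives, all 640 RA differences of the factors kept their direction. Some alternatives only set other limits on the same fit and could not change a direction. In 6 cases, all of Tbx3 in hom ΔPG cells, a difference not called before was called. By adjusted p alone its value stayed at -0.49 and was called because the limit on size was dropped, and in the others the value passed -0.5. The number of factors called on RA stayed at 10 in het and hom ΔG and het ΔPG cells under every alternative, and lay at 9 or 10 in hom ΔPG cells. The same numbers in samples of different groups did not mark pairs, since the correlation of their deviations was at most 0.085. With a replicate block, the count of factors called changed in no comparison (1 in ΔPG ES cells, 0 in the other genotype comparisons), while the count of all genes went from 217 to 44 in ΔG ES and from 186 to 112 in ΔPG RA cells.

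By adjusted p alone the factors called between genotypes were 3 (ΔG ES), 2 (ΔG RA), 7 (ΔPG ES) and 1 (ΔPG RA), and 1 (ΔG) and 4 (ΔPG) for the interaction. In ΔPG ES cells 0 were called at an adjusted p under 0.05 with a fold over 1.5, and 0 with the GC trend removed. With 1 sample left out, the counts were 0 to 1 in ΔPG ES (0 without het replicate 2), 0 to 1 in ΔPG RA (1 without hom replicate 3), and 0 to 1 for the interaction in ΔPG (1 without replicate 2 of the hom RA cells). The 4C-seq count stayed at 4 with gene bodies widened by 100 kb.

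These values changed sign, and the cause was not tested. With the GC trend removed, ΔPG ES values became -0.0574 (Tfcp2l1), -0.0487 (Nanog) and -0.0410 (Nr5a2), the last 2 from values that had passed by adjusted p (0.11 and 0.26), and ΔPG interactions 0.0045 (Nanog) and 0.17 (Nr5a2). With quantile normalization Tfcp2l1 was 0.0011 in ΔG ES and -0.0536 in ΔPG ES cells, and Nr0b1 0.0005 in ΔPG RA cells. With medians centred Nanog was 0.0021 in ΔG ES and Nr0b1 0.0048 in ΔPG RA cells.
With 1 sample left out, the values that changed sign ranged as follows. In ΔG ES they were Nanog (-0.0235 to 0.0033). In ΔG RA they were Nr0b1 (-0.0506 to 0.34) and Zfp42 (-0.21 to 0.0843). In ΔPG ES they were Prdm14 (-0.0503 to 0.0566). In ΔPG RA they were Zfp42 (-0.0336 to 0.0611), Nr5a2 (-0.13 to 0.27), Nanog (-0.11 to 0.0015), Prdm14 (-0.32 to 0.0297), Nr0b1 (-0.18 to 0.12) and Esrrb (-0.0383 to 0.0901). For the interaction in ΔG they were Nr5a2 (-0.14 to 0.19) and Nr0b1 (-0.0176 to 0.38). For the interaction in ΔPG they were Prdm14 (-0.33 to 0.0215) and Nr5a2 (-0.39 to 0.0152).
Counts of all genes moved by over 1.5 times as follows. At an adjusted p under 0.05 with a fold over 1.5 they were 117 of 217 (ΔG ES), 275 of 471 (ΔG RA) and 268 of 524 (interaction in ΔG). With the GC trend removed they were 865 of 2893 (ΔPG ES) and 1122 of 3056 (interaction in ΔPG). By adjusted p alone they were 12012, 11772, 12607 and 11424 on RA (het and hom ΔG, het and hom ΔPG) instead of 6499, 6434, 6947 and 6116. By the same limit they were 1152, 2433, 7926 and 1006 between genotypes (ΔG ES, ΔG RA, ΔPG ES, ΔPG RA), and 1164 and 6387 for the interactions. Quantile normalization moved the split on RA from 3911 higher and 2588 lower to 3042 and 3304 in het ΔG, from 3759 and 2675 to 2941 and 3305 in hom ΔG, from 3960 and 2987 to 3320 and 3503 in het ΔPG, and from 3634 and 2482 to 2864 and 2960 in hom ΔPG cells. In ΔG ES cells it gave 69 higher and 76 lower, against 78 and 139.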
